A study of Mus musculus with 46 samples.

Results

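The genes described here are 10 steroid-making and fetal Leydig genes of the mouse gonad, out of 33331 gene rows measured: Star, Cyp11a1, Hsd3b1, Cyp17a1, Insl3, Lhcgr, Scarb1, Fdx1, Hsd17b1 and Hsd17b3. They were taken by symbol, and all 10 symbols were found in both the count and the TPM table. Whole gonads of E12.5 mouse embryos were profiled by poly(A) RNA sequencing in 46 libraries, each labelled by chromosomal sex, by genotype at Enh13, a distant enhancer of the testis gene Sox9, and by replicate number. The mutant XX groups were 1bp-ins-hom (n = 5), 3bp-del-hom (n = 5), 3bp-12bp-del-hom (n = 5), 1bp-ins-het (n = 3) and 3bp-del-het (n = 3), that is, homozygotes and heterozygotes of a 1 bp insertion, homozygotes and heterozygotes of a 3 bp deletion, and a group whose label names 3bp and 12bp deletions together. The mutant XY groups were 1bp-ins-hom (n = 5), 3bp-del-hom (n = 5), 3bp-12bp-del-hom (n = 3), 1bp-ins-het (n = 3) and 3bp-del-het (n = 3). Wild type was XY WT (n = 3) and XX WT (n = 3). The labels give no strain, and do not say whether the embryos of a group shared a litter, so the p-values measure the spread between these libraries. Each library was made from a pair of gonads. The labels do not say how the 3bp and 12bp deletions lie on the alleles of the last homozygous group.

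In the fetal mouse testis, androgen is made by a pair of cell types. Fetal Leydig cells, in the interstitium, take up cholesterol through the lipoprotein receptor Scarb1, move it into mitochondria with Star, cut its side chain with Cyp11a1 and its electron donor Fdx1, and carry it through Hsd3b1 and Cyp17a1 to androstenedione. Fetal Sertoli cells, inside the cords, supply the last step to testosterone with Hsd17b3, and they also make Hsd17b1, which reduces estrone and androstenedione. Insl3 is the Leydig hormone of testis descent, and Lhcgr is the receptor for luteinizing hormone. Fetal Leydig cells arise in response to Desert hedgehog sent by Sertoli cells. The 8 Leydig or general steroidogenic genes are therefore kept apart below from the 2 genes made by Sertoli cells.

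The promoters of 6 of the 10 genes were found in the RefSeq promoter table, which covers 250 bases before to 50 bases after each start on GRCm38.p6. Those of the hormone Insl3 (chr8:71689002-71689301, plus strand), the receptor Lhcgr (chr17:88791965-88792264, minus strand) and the Sertoli enzyme Hsd17b3 (chr13:64089152-64089451, minus strand) are shown because these genes carry the contrasts reported below. Capitals mark AAGGTC, or GACCTT where it lies on the other strand, in Insl3, and AGGTCA in Lhcgr. Hsd17b3 has no capitals because it holds neither.
Insl3: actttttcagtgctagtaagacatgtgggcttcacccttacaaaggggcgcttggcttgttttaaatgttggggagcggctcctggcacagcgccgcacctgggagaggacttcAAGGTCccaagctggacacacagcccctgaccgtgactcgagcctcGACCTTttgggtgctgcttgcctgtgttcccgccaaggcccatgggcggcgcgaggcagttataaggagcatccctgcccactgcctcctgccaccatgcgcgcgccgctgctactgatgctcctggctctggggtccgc
Lhcgr: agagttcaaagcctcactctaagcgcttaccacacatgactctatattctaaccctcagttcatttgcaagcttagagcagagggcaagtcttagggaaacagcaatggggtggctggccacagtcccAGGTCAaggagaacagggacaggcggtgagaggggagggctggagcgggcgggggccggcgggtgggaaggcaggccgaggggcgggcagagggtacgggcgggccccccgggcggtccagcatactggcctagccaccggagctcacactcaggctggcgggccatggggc
Hsd17b3: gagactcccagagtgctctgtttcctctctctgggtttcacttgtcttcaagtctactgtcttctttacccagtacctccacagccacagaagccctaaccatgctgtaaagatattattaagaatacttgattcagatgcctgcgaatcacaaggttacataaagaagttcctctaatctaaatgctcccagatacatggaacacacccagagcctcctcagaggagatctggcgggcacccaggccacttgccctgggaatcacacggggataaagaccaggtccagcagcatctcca
The letters AAGGTCA, a binding site of the steroidogenic factor NR5A1, were searched on both strands and stood in 0 of the 7 windows of these genes, against 4.72% of 32851 windows of 300 bases in the table. The shorter forms were chosen after the windows were seen. AAGGTC stood in 1 of the 7 windows, against 12.3% of all windows, and AGGTCA stood in 2 of 7, the other being a Cyp11a1 window, against 16.3% of all. Both shorter forms are contained in the longer one and overlap each other. The missing entries were Star, Cyp17a1, Hsd17b1 and Scarb1.

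Library totals ran from 29909111 to 46150400 estimated counts. The sex labels held: Xist spanned 33.4 to 188 CPM (counts scaled by normalized library size) over 24 XX gonads and never passed 0.189 CPM over 22 XY gonads. The sum of 4 Y-linked genes never passed 1.87 CPM in XX gonads and was at least 149.6 CPM in XY gonads. Xist differed between XX groups. It was 132 to 164 CPM in XX WT, 33.4 to 38.8 CPM in 3bp-del-het and 53.5 to 93.1 CPM in 1bp-ins-het gonads. It was 40.9 to 54.9 CPM in 1bp-ins-hom, 51.0 to 65.0 CPM in 3bp-del-hom and 67.3 to 188 CPM in 3bp-12bp-del-hom gonads. The cause of this difference was not tested. Some libraries carried markers of neighbouring tissue. XX 3bp-del-hom replicate 4 had a mesonephros marker sum of 114 CPM, against 23.5 to 29.0 CPM in its fellows, and was the lowest of its group for all of the 10 genes but Fdx1 and Hsd17b1. XY WT replicate 3 had a mesonephros marker sum of 206 CPM, against 13.1 and 21.4 CPM in the other XY WT libraries. The chromaffin marker sum was 274 CPM in XX WT replicate 1, against 3.54 and 4.05 CPM in the other XX WT libraries. Sox9 was at 136 to 266 CPM in 14 of the XX homozygous libraries and at 147 CPM in the remaining one, XX 1bp-ins-hom replicate 5, against 7.84 to 14.4 CPM in the 9 XX heterozygous and wild-type libraries.

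Wild-type gonads set the scale. The Sertoli enzymes were the genes with the widest gap between the sexes. Hsd17b3 (GRCm38 chr13:64058266-64089230) had 17.1, 14.2 and 5.35 CPM in XY WT gonads, against 0.155, 0.0269 and 0 CPM in XX WT gonads, where it rested on 6, 1 and 0 reads. Hsd17b1 (chr11:101078411-101080527) had 7.37, 6.001 and 1.82 CPM in XY WT gonads, against 0.0777, 0.188 and 0.187 CPM in XX WT gonads. In both genes every XY library stood above every XX library, and the lowest XY library was the one with mesonephros markers. The log2 fold changes of XY WT over XX WT were 7.49 ± 0.85 (SE, edgeR's quasi-likelihood test, adjusted p = 0.00305) for Hsd17b3 and 5.05 ± 0.66 (adjusted p = 0.00461) for Hsd17b1. Both genes passed the filter on low counts only through the XY WT libraries, so these sizes are loose.

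The Leydig side of the list did not part the sexes in this way. Lhcgr (chr17:88716481-88791990) had 0.699, 0.333 and 0.252 CPM in XY WT gonads, against 1.501, 1.75 and 2.61 CPM in XX WT gonads. Cyp11a1 (chr9:58006411-58027023) had 3.64, 3.12 and 2.77 CPM in XY WT gonads, against 7.92, 5.24 and 6.47 CPM in XX WT gonads. Both were lower in every XY library than in every XX library, by -2.17 ± 0.46 (SE, edgeR, adjusted p = 0.0269) and -1.05 ± 0.23 (adjusted p = 0.0296) on the log2 scale. Of the 10 genes, 4 were thus called, 2 higher and 2 lower, and 11.0% of all 15730 genes tested were called in this comparison, 5.10% higher and 5.94% lower. The calls of the Sertoli enzymes held when any 1 library was left out. Cyp11a1 lost its call without any 1 of XX WT replicates 1, 2 and 3 and XY WT replicates 1 and 2 (edgeR adjusted p of 0.0643 to 0.108) and in a fit over all 12 groups (0.242), and Lhcgr without any 1 of the XX WT replicates or XY WT replicate 2 (0.0579 to 0.11).

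The last enzyme of the Leydig pathway, Cyp17a1 (chr19:46667165-46673172), had 3.32, 1.64 and 0.566 CPM in XY WT gonads, against 0.958, 0.913 and 1.34 CPM in XX WT gonads. The groups overlapped because of XY WT replicate 3, which also had the lowest Star, Hsd3b1, Insl3, Scarb1 and Fdx1 of the 3. Its Sertoli marker sum was 663 CPM, against 1499 and 1685 CPM in the other XY WT libraries. Without this library 8 of the 10 genes were called, 6 higher and 2 lower, among 43.3% of 16015 genes. The added calls were Hsd3b1 (log2 fold change 1.48, edgeR adjusted p = 0.00112), Cyp17a1 (1.21, adjusted p = 0.0261), Star (0.88, adjusted p = 0.000868) and Scarb1 (0.59, adjusted p = 0.00136). The part of the admixed tissue in these differences was not tested. In bulk RNA of whole gonads, fewer cells of a type and less RNA per cell cannot be told apart.

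Levels between genes can be compared in TPM, which is scaled to transcript length. In XY WT gonads Scarb1 stood highest at 62.3 ± 9.85 TPM, followed by Fdx1 at 31.3 ± 2.95, Hsd17b3 at 20.8 ± 8.65, Hsd3b1 at 7.51 ± 3.78, Star at 7.41 ± 1.27 and Hsd17b1 at 6.34 ± 3.27 TPM (SD, n = 3). Cyp11a1, Insl3, Cyp17a1 and Lhcgr followed at 2.44, 1.79, 1.65 and 0.233 TPM. Hsd3b1, Star and Hsd17b1 lay within 1 SD of each other, as did Insl3 and Cyp17a1. At this stage the genes thought of as Leydig-restricted were thus at low levels in wild type, and Insl3 was at 25.8, 28.9 and 0.96 estimated reads in the XY WT libraries, against 0, 0 and 12.48 in the XX WT libraries. Insl3 (chr8:71689214-71690575) shares 404 of its 623 exon bases with Jak3 on the same strand, so its reads may be split between the genes, and Hsd3b1 (chr3:98852194-98859794) has the close paralog Hsd3b6.

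**Figure D1:**
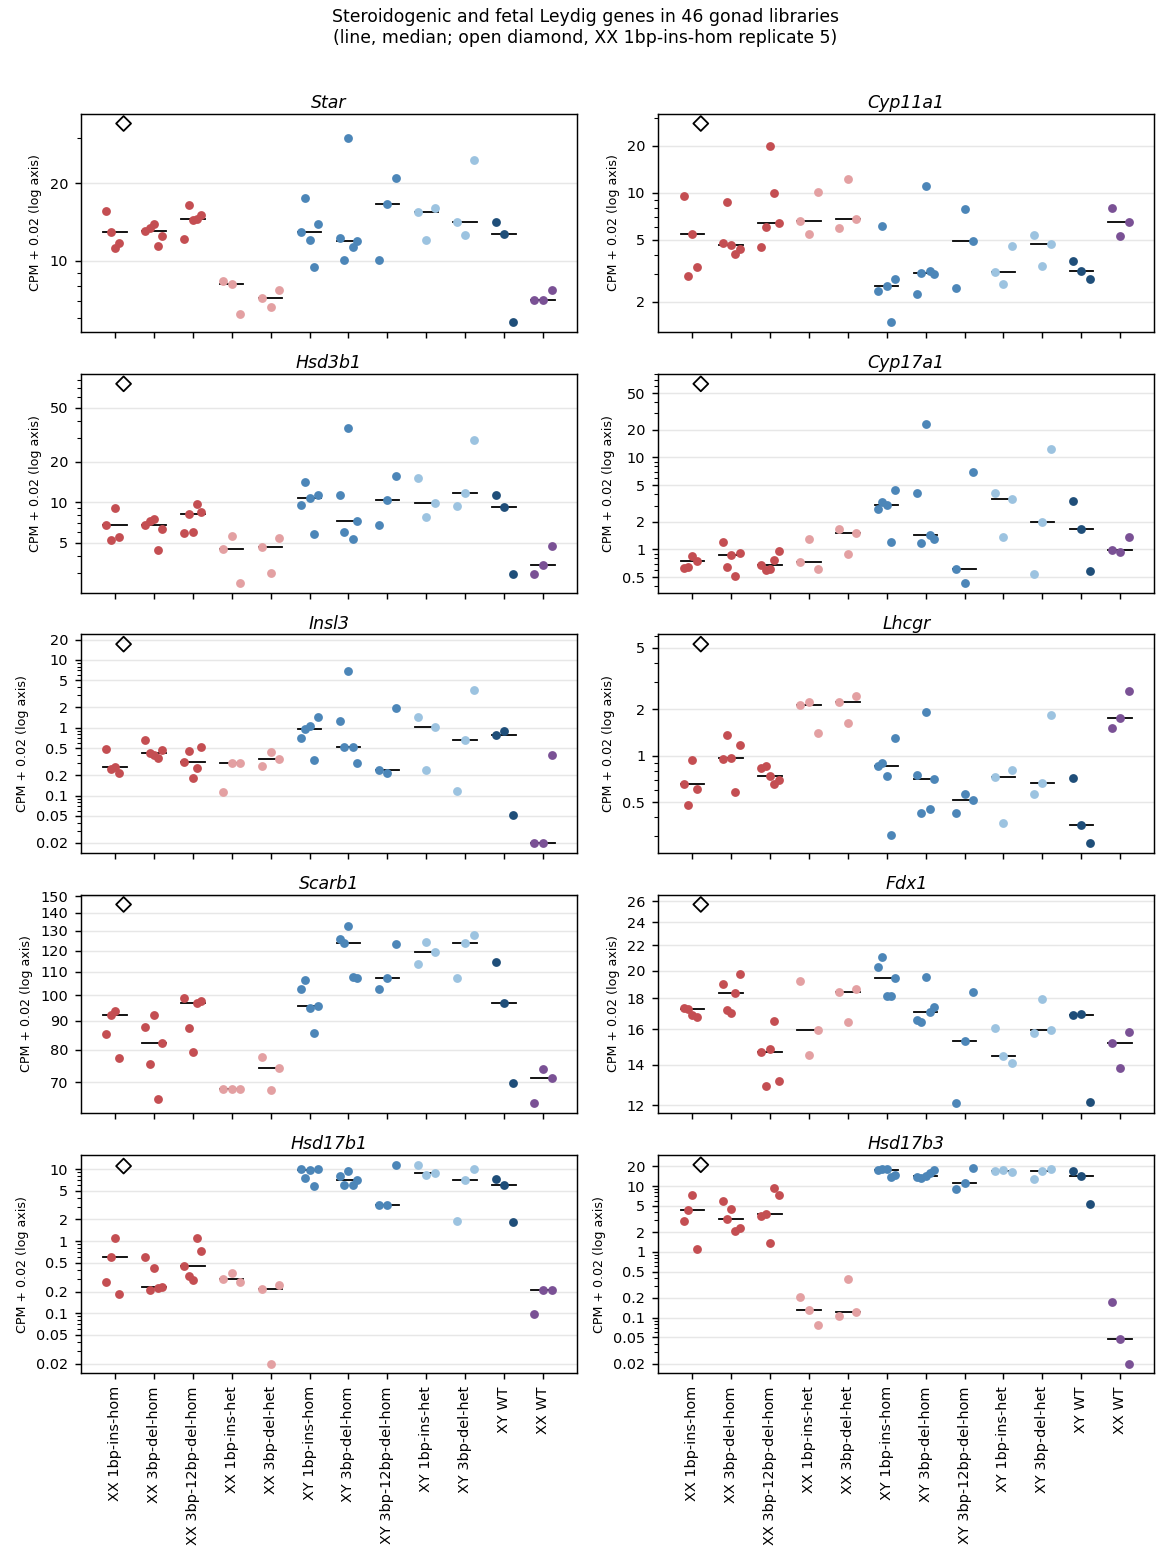
CPM plus 0.02 of each of the 10 genes on log axes in the 46 libraries, by group, with 1 point per library and a line at the group median. The open diamond is XX 1bp-ins-hom replicate 5, which lies above all other libraries for 9 of the 10 genes, while Hsd17b3 of the other 14 XX homozygous libraries lies between the XX heterozygotes or wild type and nearly all XY libraries.

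The question put to the mutants was what an altered Sox9 enhancer does in XX gonads. In homozygous XX gonads the Sertoli enzyme Hsd17b3 was higher in every library than in any XX WT library, Star rose moderately, Lhcgr was lower than in XX WT in all but 1 library, and Cyp17a1 stayed within or below the range of the other XX gonads in all but that same library. The exception, XX 1bp-ins-hom replicate 5, is described on its own below, and the calls of the 10 genes over XX WT are given with and without it. The 3 homozygous groups were compared with the same 3 XX WT libraries, so their results share controls.

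Hsd17b3 had 2.93, 4.28, 7.25, 1.09 and 21.1 CPM in XX 1bp-ins-hom gonads, against the 0.155, 0.0269 and 0 CPM of XX WT. In XX 3bp-del-hom gonads it had 5.94, 3.09, 4.47, 2.05 and 2.31 CPM. In XX 3bp-12bp-del-hom gonads it had 3.52, 3.71, 1.36, 9.33 and 7.40 CPM. No homozygous library overlapped any XX WT or XX heterozygous library, the highest of which stood at 0.362 CPM. The log2 fold changes over XX WT were 6.78 ± 1.42 (SE, edgeR, adjusted p = 0.00976) in 1bp-ins-hom, 5.73 ± 0.72 (adjusted p = 0.000284) in 3bp-del-hom and 6.25 ± 1.00 (adjusted p = 0.00401) in 3bp-12bp-del-hom. Without replicate 5 the first was 5.87 (edgeR adjusted p = 0.00344). In XX WT the gene rested on few reads, and it passed the filter on low counts only through the homozygotes, so these sizes are loose. With each library left out in turn they ran from 5.87 to 8.70, 5.23 to 7.66 and 5.75 to 8.17.

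The other Sertoli enzyme lagged behind. Hsd17b1 had 0.433, 0.313, 0.267, 1.10 and 0.705 CPM in XX 3bp-12bp-del-hom gonads, against 0.0777, 0.188 and 0.187 CPM in XX WT gonads. Its log2 fold change there was 1.91 ± 0.58 (SE, edgeR, adjusted p = 0.0364). The call was lost without any 1 of XX 3bp-12bp-del-hom replicates 4 and 5 and XX WT replicates 1, 2 and 3 (edgeR adjusted p of 0.0723 to 0.117), and in a fit over all 12 groups (0.201). In XX 3bp-del-hom gonads it had 0.589, 0.188, 0.405, 0.201 and 0.208 CPM and was too low to be tested. In XX 1bp-ins-hom gonads it had 0.248, 0.574, 1.09, 0.167 and 11.0 CPM, and the fold change over XX WT of 4.12 ± 1.71 was not called (edgeR adjusted p = 0.104). In both tested groups Hsd17b1 passed the filter on low counts only through the homozygotes, so these sizes are loose.

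Star (chr8:25806555-25815982), which brings cholesterol to the inner mitochondrial membrane, had 15.5, 12.9, 11.2, 11.7 and 34.1 CPM in XX 1bp-ins-hom gonads, against 7.02, 7.03 and 7.68 CPM in XX WT gonads. It had 13.0, 13.4, 13.9, 11.4 and 12.45 CPM in XX 3bp-del-hom gonads and 12.1, 16.5, 14.4, 14.5 and 15.03 CPM in XX 3bp-12bp-del-hom gonads. Every homozygous library was above every XX WT library. The log2 fold changes over XX WT were 1.26 ± 0.39 (SE, edgeR, adjusted p = 0.0393) in 1bp-ins-hom, 0.82 ± 0.09 (adjusted p = 0.00011) in 3bp-del-hom and 1.02 ± 0.11 (adjusted p = 0.000299) in 3bp-12bp-del-hom. In 1bp-ins-hom the fold change was 0.85 (edgeR adjusted p = 0.00176) without replicate 5, and the call was lost without any 1 of 1bp-ins-hom replicates 1 and 2 and XX WT replicates 1, 2 and 3 (edgeR adjusted p of 0.0506 to 0.116) or without a filter on low counts (0.0646).

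Lhcgr moved the other way. It had 0.937, 1.34, 0.944, 0.558 and 1.16 CPM in XX 3bp-del-hom gonads and 0.808, 0.842, 0.721, 0.638 and 0.675 CPM in XX 3bp-12bp-del-hom gonads, against 1.501, 1.75 and 2.61 CPM in XX WT gonads. It fell in both groups, with log2 fold changes of -0.99 ± 0.30 (SE, edgeR, adjusted p = 0.0204) and -1.38 ± 0.24 (adjusted p = 0.00346). The first call was lost without XX WT replicate 3 (edgeR adjusted p = 0.109), and both were lost in the fit over all 12 groups (adjusted p of 0.162 and 0.0653). In XX 1bp-ins-hom gonads it had 0.635, 0.459, 0.918, 0.585 and 5.28 CPM. The fold change over XX WT was -0.29 ± 0.82 with replicate 5 (edgeR adjusted p = 0.818), and -1.55 without it (adjusted p = 0.00519).

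Hsd3b1 had 6.76, 5.20, 9.01, 5.54 and 75.2 CPM in XX 1bp-ins-hom gonads, against 2.93, 3.41 and 4.73 CPM in XX WT gonads. It had 6.80, 7.30, 7.56, 4.39 and 6.29 CPM in XX 3bp-del-hom gonads and 5.86, 8.23, 6.01, 9.77 and 8.51 CPM in XX 3bp-12bp-del-hom gonads. Only 1 homozygous library, XX 3bp-del-hom replicate 4, fell inside the XX WT range. It is the library with mesonephros markers, whose part in this value was not tested, and without it the change in 3bp-del-hom was 0.96 (edgeR adjusted p = 0.000744). The gene rose in 3bp-del-hom (log2 fold change 0.81 ± 0.21, SE, edgeR, adjusted p = 0.01) and in 3bp-12bp-del-hom (1.08 ± 0.22, adjusted p = 0.00623). Both calls were lost in a fit over all 12 groups, which shares 1 estimate of the spread (edgeR adjusted p of 0.349 and 0.268). In 1bp-ins-hom the value was 2.48 ± 1.11 and was not called (edgeR adjusted p = 0.127), and without replicate 5 it was 0.88 and was called (adjusted p = 0.0199).

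Scarb1 (chr5:125277087-125341094) averaged 98.7 ± 26.7 CPM in XX 1bp-ins-hom, 80.6 ± 10.6 CPM in XX 3bp-del-hom and 91.9 ± 8.39 CPM in XX 3bp-12bp-del-hom gonads (SD, n = 5 each), against 69.8 ± 5.06 CPM in XX WT gonads (SD, n = 3). It rose in 3bp-12bp-del-hom (log2 fold change 0.42 ± 0.08, SE, edgeR, adjusted p = 0.00615). It gained a call in 1bp-ins-hom without replicate 4 (0.59, edgeR adjusted p = 0.0442) or replicate 5 (0.34, adjusted p = 0.0111) of that group, and in 3bp-del-hom without replicate 4 (0.31, adjusted p = 0.0048). Fdx1 (chr9:51943306-51963556) averaged 18.2 ± 1.14 CPM in XX 3bp-del-hom gonads (SD, n = 5), against 14.95 ± 1.02 CPM in XX WT gonads (SD, n = 3). It rose there by 0.28 ± 0.08 (SE, edgeR, adjusted p = 0.0123), a call that was lost without XX WT replicate 2 (adjusted p = 0.0686). Both are genes that many cell types use, unlike Insl3 and Cyp17a1.

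Cyp17a1, which makes androgen precursors in fetal Leydig cells, did not rise in these groups. It had 1.18, 0.617, 0.854, 0.491 and 0.890 CPM in XX 3bp-del-hom gonads and 0.664, 0.578, 0.588, 0.754 and 0.939 CPM in XX 3bp-12bp-del-hom gonads, against 0.958, 0.913 and 1.34 CPM in XX WT gonads. The log2 fold changes were -0.41 ± 0.31 (SE, edgeR, adjusted p = 0.315) and -0.58 ± 0.27 (adjusted p = 0.138). In XX 1bp-ins-hom gonads it had 0.607, 0.631, 0.819, 0.724 and 63.0 CPM, so 4 libraries lay below the XX WT range and 1 lay far above it. The fold change over XX WT was 3.64 ± 2.06 (edgeR, adjusted p = 0.216) with all 5 libraries and -0.59 (adjusted p = 0.117) without replicate 5.

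Insl3, the Leydig hormone, had 0.469, 0.230, 0.248, 0.195 and 17.1 CPM in XX 1bp-ins-hom gonads, against 0, 0 and 0.373 CPM in XX WT gonads. It had 0.643, 0.403, 0.382, 0.335 and 0.445 CPM in XX 3bp-del-hom gonads and 0.289, 0.433, 0.160, 0.232 and 0.499 CPM in XX 3bp-12bp-del-hom gonads. Each group overlapped XX WT through XX WT replicate 3, and none was called (edgeR adjusted p of 0.148, 0.121 and 0.292). Without that XX WT library both deletion groups were called (edgeR adjusted p of 0.00115 and 0.0116), but Insl3 is then at 0 in every XX WT library left and the fitted values are no measure of size.

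In all, XX 1bp-ins-hom gonads differed from XX WT in 2 of the 10 genes, both higher, when 32.3% of 16040 genes were called, 17.2% higher and 15.1% lower. XX 3bp-del-hom gonads differed in 5 of 9 tested, 4 higher and 1 lower, when 44.8% of 16031 genes were called, 21.6% higher and 23.1% lower. XX 3bp-12bp-del-hom gonads differed in 6 of 10, 5 higher and 1 lower, when 25.6% of 15957 genes were called, 14.6% higher and 11.0% lower. Without replicate 5, XX 1bp-ins-hom gonads differed in 5 of 8 tested, 4 higher and 1 lower, when 35.2% of 15919 genes were called. The median log2 fold change of the 8 Leydig or general steroidogenic genes was 0.93 in 1bp-ins-hom, 0.24 in 3bp-del-hom and 0.48 in 3bp-12bp-del-hom, against 0.00, -0.03 and 0.00 over all genes tested. Without replicate 5 the median in 1bp-ins-hom was that of Fdx1, 0.22, over the 7 of these genes then tested.

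**Figure D2:**
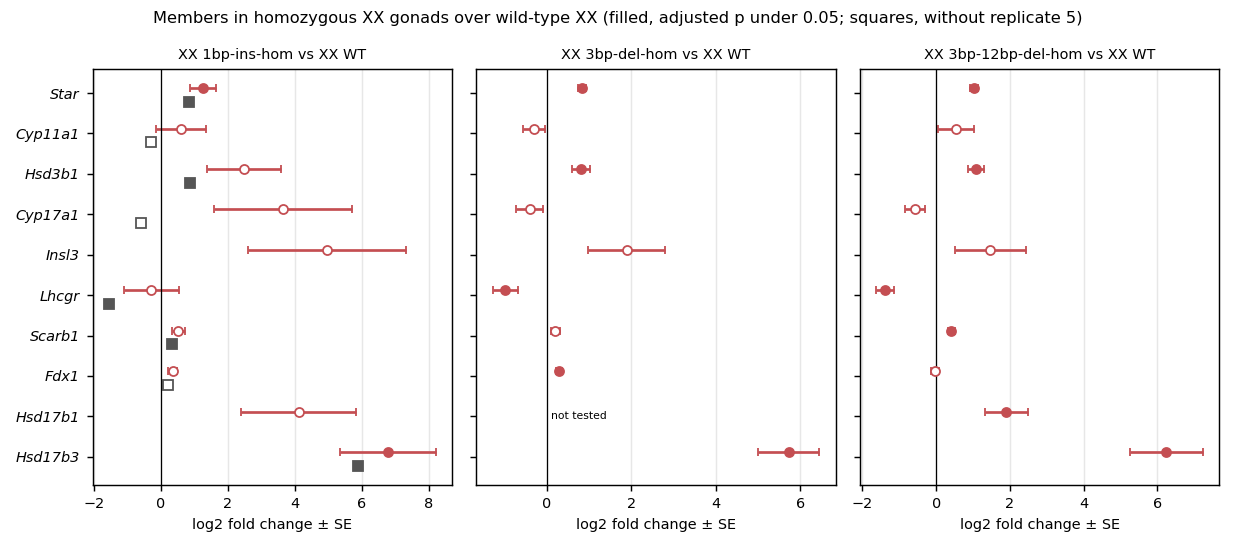
Log2 fold changes with their SE (points and bars, edgeR) of the 10 genes in each homozygous XX group over XX WT, filled where the adjusted p was under 0.05. Squares in the left panel give the values without XX 1bp-ins-hom replicate 5, where Insl3 and Hsd17b1 were too low to be tested, and show Cyp17a1, Lhcgr and Cyp11a1 below 0.

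Set over the 3 homozygous groups at once, leaving out that library, the 14 remaining XX homozygous libraries did not overlap the 9 XX heterozygous and wild-type libraries in 3 of the 10 genes. Hsd17b3 spanned 1.09 to 9.33 CPM in the homozygotes, against 0 to 0.362 CPM. Star spanned 11.2 to 16.5 CPM in the homozygotes, against 6.21 to 8.32 CPM. Lhcgr spanned 0.459 to 1.34 CPM in the homozygotes, against 1.39 to 2.61 CPM. Of 17033 expressed genes, 4.97% were separated in this way, 2.73% above and 2.24% below. The separation was counted after the values were seen and carries no test.

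XX 1bp-ins-hom replicate 5 had the highest value of all 46 libraries for 9 of the 10 genes, and the third highest for Hsd17b1. Its Cyp17a1 was 63.0 CPM, from 2436 reads, against a median of 0.678 CPM in the other 4 libraries of its group, a ratio of 92.9. Insl3 was 17.1 CPM in replicate 5, against 0.195 to 0.469 CPM, a ratio of 71.6 to the median. The gap narrowed down the list to 26.8 for Hsd17b1, 12.2 for Hsd3b1, 8.65 for Lhcgr, 6.32 for Cyp11a1, 5.85 for Hsd17b3, 2.77 for Star, 1.63 for Scarb1 and 1.5 for Fdx1. The genes with the largest ratios were the hormone and the androgen-making enzyme of fetal Leydig cells, and those with the smallest were the genes of cholesterol uptake and electron transfer.

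In TPM the order of the genes in replicate 5 differed from that in XY WT gonads. Scarb1 stood at 89.2 TPM, Hsd3b1 at 67.5, Insl3 at 54.3, Cyp17a1 at 53.4, Fdx1 at 48.6 and Hsd17b3 at 31.0 TPM. Cyp17a1 thus stood above Hsd17b3 in this library and below it in the XY WT mean. Jak3, which shares exon bases with Insl3, was at 15.8 CPM in replicate 5, against 18.3 to 23.7 CPM in the other 4 libraries, and Hsd3b6, the paralog of Hsd3b1, was at 34.5 CPM, against 24.4 to 37.4 CPM. Neither partner gene stood above its fellows.

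Other markers moved with these genes in replicate 5. Of the 6 other fetal Leydig genes, the prolactin receptor Prlr was at 8.35 CPM, against 0.641 to 1.00 CPM in its fellows, and Crhr1, the receptor for corticotropin-releasing hormone, was at 2.87 CPM, against 0 in all 4, while Dlk1 and Thbs2 stayed within the range of the fellows. Gramd1b was at 50.6 CPM in replicate 5, against 16.4 to 24.4 CPM, and Mgarp was at 2.02 CPM, against 0.720 to 1.38 CPM. The 4 Hedgehog targets summed to 372 CPM in replicate 5, against 63.6 to 120 CPM in its fellows. One of them, Hhip, was at 93.9 CPM, against 0.524 to 1.14 CPM. The Sertoli marker sum was 2059 CPM, against 491 to 988 CPM, with Amh at 870 CPM, against 18.2 to 136 CPM. Of the genes in that sum Fgf9 went the other way, at 15.5 CPM, against 19.4 to 26.7 CPM. Inhbb was at 254.8 CPM, against 172.5 to 241.7 CPM. All 6 pregranulosa markers were lower in replicate 5 than in any of the other 23 XX libraries. Sox9 itself, at 147 CPM, lay inside the 136 to 213 CPM of its fellows.

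Adrenal tissue also makes steroids, so its markers are given beside these values. Cyp21a1, an adrenal 21-hydroxylase that is also reported in fetal Leydig cells, was at 2.77 CPM in replicate 5, the highest of the 46 libraries, against 0 to 0.0279 CPM in its fellows. Cyp11b1, the adrenal 11-beta-hydroxylase, was at about a single read. Akr1b7 was at 5.3 CPM, against 1.07 to 1.35 CPM, Mrap at 1.78 CPM, against 0.689 to 1.17 CPM, and Mc2r, the corticotropin receptor, at 3.15 CPM, inside the 2.26 to 3.57 CPM of its fellows. The 5 adrenal cortex markers summed to 13.0 CPM in replicate 5, against 4.33 to 5.57 CPM, and the 6 chromaffin markers to 2.02 CPM, against 1.98 to 67.6 CPM. Xist in this library was 54.9 CPM, inside the XX range. Its Y-linked sum was 0.672 CPM, against 0 to 0.167 CPM in its fellows. Among XX libraries only XX 1bp-ins-het replicate 1 had a higher Y-linked sum, at 1.87 CPM. The source of these Y-linked reads was not tested. The germ cell genes Dazl (147 CPM) and Ddx4 (78.9 CPM) were also the highest of all libraries. The other gene of that list, Pou5f1, was at 91.7 CPM, inside the 47.2 to 103.2 CPM of its fellows. The adrenal gene Cyp11b1 and the chromaffin gene Dbh were each at 0.0259 CPM. The part of the other markers in the values of replicate 5 was not tested.

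**Figure D3:**
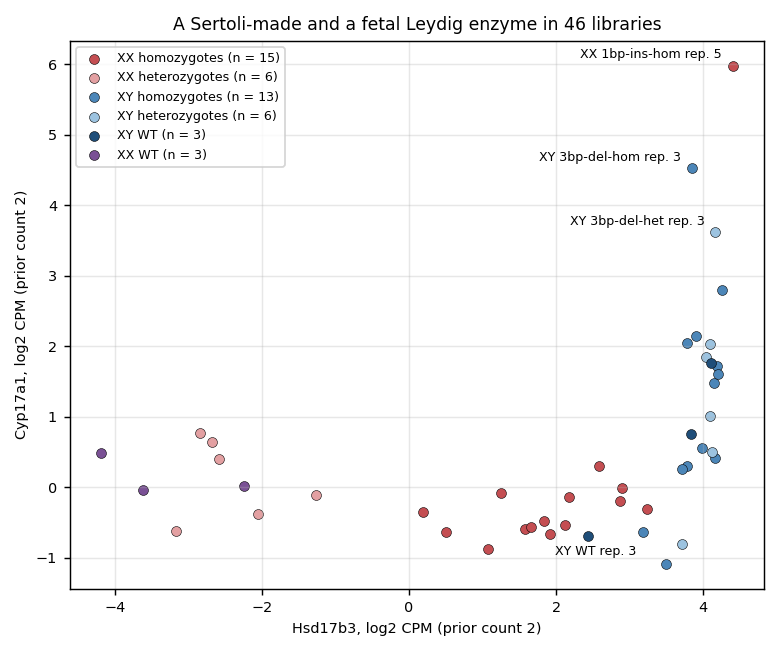
Log2 CPM of Cyp17a1 against Hsd17b3 in 46 libraries, coloured by sex and genotype class. XX homozygous libraries spread along the Hsd17b3 axis at low Cyp17a1, XY libraries spread along the Cyp17a1 axis at high Hsd17b3, and XX 1bp-ins-hom replicate 5 stands at the upper right with 21.1 CPM of Hsd17b3 and 63.0 CPM of Cyp17a1.

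Against XY WT, both deletion homozygotes had less of the Sertoli enzyme Hsd17b1. Hsd17b1 was 0.318 ± 0.176 CPM in XX 3bp-del-hom and 0.564 ± 0.346 CPM in XX 3bp-12bp-del-hom gonads (SD, n = 5 each), against 5.07 ± 2.89 CPM in XY WT gonads (SD, n = 3). It was lower by -3.96 ± 0.51 (SE, edgeR, adjusted p = 0.00169) and -3.17 ± 0.54 (adjusted p = 0.0136), and no library of either group reached the lowest XY WT library. The second call was lost without XY WT replicate 1 (edgeR adjusted p = 0.0545). In the 3bp-del-hom comparison Hsd17b1 passed the filter on low counts only through XY WT. Hsd17b3 was also lower in XX 3bp-del-hom, by -1.75 ± 0.43 (edgeR, adjusted p = 0.0273), although the groups overlapped, and that call was lost without any 1 of XX 3bp-del-hom replicates 2, 3 and 5 and XY WT replicates 1 and 2 (edgeR adjusted p of 0.0537 to 0.103). In XX 3bp-12bp-del-hom its change was -1.27 ± 0.56 and was not called (edgeR adjusted p = 0.245).

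These were 2 of 10 genes for XX 3bp-del-hom and 1 of 10 for XX 3bp-12bp-del-hom, both lower, when 17.6% of all genes (8.60% higher, 8.99% lower) and 5.60% (3.39% higher, 2.21% lower) were called. None of the 8 Leydig or general steroidogenic genes was called by edgeR in either comparison, although leaving out XY WT replicate 3 added Cyp17a1 to the lower genes in both (-1.61, edgeR adjusted p = 0.0123, and -1.80, adjusted p = 0.00726) and Hsd3b1 in 3bp-del-hom (-0.66, adjusted p = 0.0365). DESeq2 called Cyp11a1 higher in both (0.73, adjusted p = 0.0455, and 1.55, adjusted p = 0.00543) and Lhcgr higher in 3bp-del-hom (1.20, adjusted p = 0.045). Lhcgr was also called higher in 3bp-del-hom without replicate 4 of that group (1.35, edgeR adjusted p = 0.0431).

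XX 1bp-ins-hom gonads differed from XY WT in 0 of the 10 genes by edgeR, in 0 at an unadjusted p under 0.05 and in 0 by DESeq2, when 0.126% of 15916 genes were called, 0.0503% higher and 0.0754% lower. Without replicate 5 Hsd17b1 was lower (-3.25, edgeR adjusted p = 0.0424) and 3.64% of genes were called. Leaving out XY WT replicate 3 as well, a choice made after seeing the data, Hsd17b1 (-3.64, edgeR adjusted p = 0.011) and Cyp17a1 (-1.81, adjusted p = 0.0129) were lower, when 8.10% were called.

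Homozygotes were also set against heterozygotes of the same allele. Star was 12.8 ± 0.952 CPM in XX 3bp-del-hom (SD, n = 5), against 7.13 ± 0.56 CPM in XX 3bp-del-het gonads (SD, n = 3), a log2 fold change of 0.88 ± 0.10 (SE, edgeR, adjusted p = 0.000173). Hsd17b3 rose by 4.33 ± 0.57 (edgeR, adjusted p = 0.000695) and Lhcgr fell by 1.05 ± 0.28 (adjusted p = 0.0183), which made 3 of 9 tested, 2 higher and 1 lower, when 27.1% of genes were called, 14.0% higher and 13.1% lower. The Lhcgr call was lost without XX 3bp-del-het replicate 1 or 3 (edgeR adjusted p of 0.0663 and 0.0879) and in the fit over all 12 groups (0.167), and Hsd3b1, Scarb1 and Cyp11a1 gained calls without XX 3bp-del-hom replicate 4 or 2. For the 1bp insertion, Hsd17b3 alone was called, by 5.94 ± 1.27 (edgeR, adjusted p = 0.022), when 17.3% of genes were called, 8.49% higher and 8.76% lower. That call was lost without any 1 of the 3 heterozygous libraries (edgeR adjusted p of 0.0563 to 0.0949), while without XX 1bp-ins-hom replicate 5 there were 4 calls: Hsd17b3 (5.03), Star (0.78) and Scarb1 (0.37) higher and Lhcgr (-1.53) lower. Scarb1 was also called without replicate 4 (0.63, edgeR adjusted p = 0.043). In both comparisons Hsd17b3 passed the filter on low counts only through the homozygotes, so its sizes there are loose.

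The heterozygous XX gonads themselves stayed near XX WT. Hsd17b3 had 0.187, 0.113 and 0.0567 CPM in XX 1bp-ins-het and 0.0849, 0.362 and 0.102 CPM in XX 3bp-del-het gonads, against 0.155, 0.0269 and 0 CPM in XX WT gonads, and it was too low to be tested. By edgeR and by DESeq2, 0 of the tested genes were called in either group, when 0% and 10.9% of all genes were called, the second share made of 4.78% higher and 6.15% lower. At an unadjusted p under 0.05 there were 0 in XX 1bp-ins-het and 1 in XX 3bp-del-het, Fdx1 (log2 fold change 0.23 ± 0.09). Without XX WT replicate 3, the single XX WT library with Insl3 reads, Insl3 was called higher in XX 3bp-del-het (edgeR adjusted p = 0.0323). Insl3 is then at 0 in every XX WT library left, and the fitted value is no measure of size.

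In XY gonads none of the 5 mutant groups differed from XY WT in any of the 10 genes by edgeR or DESeq2, when 0%, 0%, 0.0130%, 0% and 0% of all genes were called in 1bp-ins-hom, 3bp-del-hom, 3bp-12bp-del-hom, 1bp-ins-het and 3bp-del-het. At an unadjusted p under 0.05 there was 1 gene in 1bp-ins-hom, Fdx1 (0.33 ± 0.12 on the log2 scale), and 0 in the other 4 groups. The fitted values were wide: for Cyp17a1 they ran from 0.50 ± 1.11 in 3bp-12bp-del-hom to 1.73 ± 1.18 in 3bp-del-hom (SE). They were narrower for other genes, with SEs of 0.31 to 0.45 for Hsd17b3 and 0.14 to 0.17 for Scarb1.

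Single libraries stood apart within the XY groups. Cyp17a1 had 4.06, 1.14, 23.0, 1.42 and 1.28 CPM in XY 3bp-del-hom, 0.514, 1.96 and 12.2 CPM in XY 3bp-del-het, and 0.588, 0.416 and 6.90 CPM in XY 3bp-12bp-del-hom gonads, against 3.32, 1.64 and 0.566 CPM in XY WT gonads. Within each of these 3 mutant groups 1 library stood well above its fellows. XY 3bp-del-hom replicate 3 was also the highest of its group for Star (30.1 CPM), Hsd3b1 (35.7 CPM), Insl3 (6.93 CPM), Lhcgr (1.90 CPM) and Cyp11a1 (11.0 CPM), while its Hsd17b3, at 14.3 CPM, lay inside the 13.0 to 17.8 CPM of the group. Across the 22 XY libraries Cyp17a1 spanned 0.416 to 23.0 CPM, with a median of 2.35 CPM, and Hsd17b3 spanned 5.35 to 19.0 CPM, with a median of 16.1 CPM.

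Several of these genes varied together from one XY library to the next. Described over the 22 XY libraries, the Pearson correlation of log2 CPM with Cyp17a1 was 0.953 for Insl3, 0.82 for Hsd3b1, 0.797 for Hsd17b1, 0.779 for Lhcgr, 0.74 for Star and 0.555 for Hsd17b3. Spearman's rho for the same genes was 0.959, 0.798, 0.852, 0.733, 0.621 and 0.574. Without the 2 libraries farthest from the median in Cyp17a1, XY 3bp-del-hom replicate 3 and XY 3bp-del-het replicate 3, the correlations were 0.922, 0.668, 0.885, 0.605, 0.538 and 0.675. Scarb1 and Fdx1 reached 0.519 and 0.521, and 0.376 and 0.574 without those 2. Cyp11a1 was at 0.321 over all 22 and at -0.07 without those 2. Of the Hedgehog genes, Hhip was at 0.827 with Cyp17a1, and 0.863 without the 2, while Gli1 was at 0.523, the ligand Dhh at 0.397 and Ptch1 at 0.259. Genes measured in the same libraries share depth and composition, and these values carry no test.

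**Figure D4:**
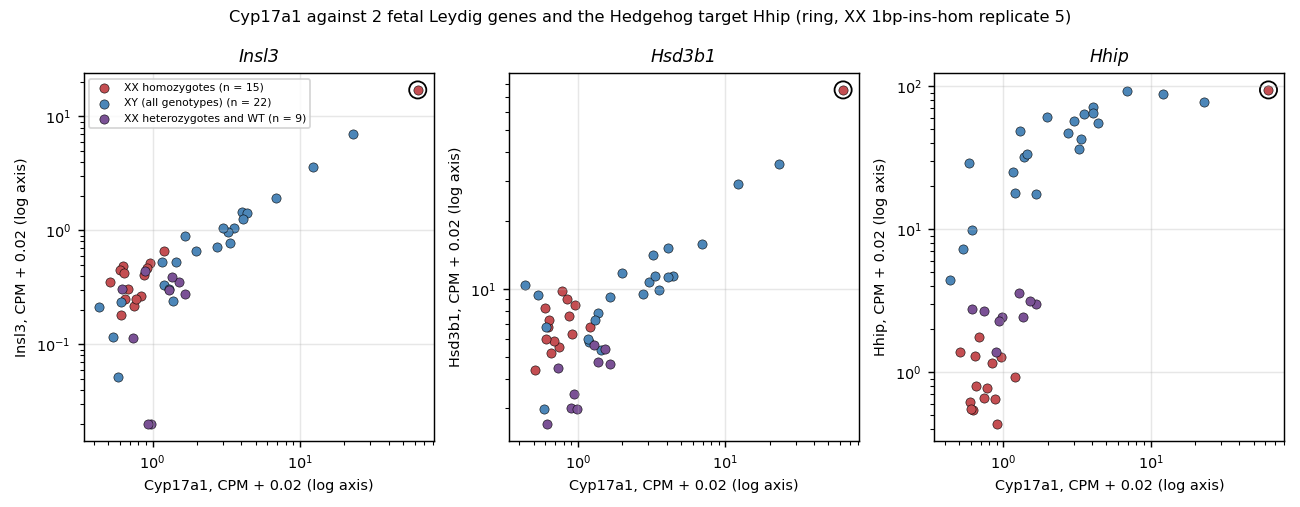
CPM plus 0.02 of Insl3, Hsd3b1 and Hhip against Cyp17a1 on log axes in the 46 libraries. Among XY libraries (blue) the genes rise together, the other XX homozygotes (red) cluster at low Cyp17a1 with Hhip between 0.415 and 1.73 CPM, and the ringed library, XX 1bp-ins-hom replicate 5, lies beyond the XY range of all 4 genes.

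Cyp11a1, the side-chain cleavage enzyme, had 9.44, 2.90, 5.43, 3.34 and 27.7 CPM in XX 1bp-ins-hom, 4.77, 8.70, 4.59, 4.06 and 4.33 CPM in XX 3bp-del-hom, and 4.50, 6.02, 19.9, 9.97 and 6.40 CPM in XX 3bp-12bp-del-hom gonads, against 7.92, 5.24 and 6.47 CPM in XX WT gonads. It was called in none of the 3 groups over XX WT (edgeR adjusted p of 0.578, 0.358 and 0.462), although it was lower in 3bp-del-hom without replicate 2 of that group (-0.56, adjusted p = 0.0201). The library with 19.9 CPM, XX 3bp-12bp-del-hom replicate 3, had 0.588 CPM of Cyp17a1, so a high Cyp11a1 was not matched by Cyp17a1 there.

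Of the 17 other genes of the steroid pathway, 8 of 17 tested were called in XX 1bp-ins-hom over XX WT, 4 higher and 4 lower, 10 in XX 3bp-del-hom, 5 higher and 5 lower, and 7 in XX 3bp-12bp-del-hom, 4 higher and 3 lower. The background shares of called genes were those given above, 32.3%, 44.8% and 25.6%. The same few genes led in each. Akr1c14, a 3-alpha-hydroxysteroid dehydrogenase, averaged 8.28 CPM in 1bp-ins-hom, 7.49 CPM in 3bp-del-hom and 5.92 CPM in 3bp-12bp-del-hom gonads, against 21.8 CPM in XX WT gonads. It fell by 1.38 ± 0.22, 1.54 ± 0.10 and 1.86 ± 0.20 on the log2 scale (SE, edgeR, adjusted p of 0.00251, 1.24e-05 and 0.000409). In XY WT gonads it was at 2.55 CPM, lower than in XX WT by -3.10 ± 0.15 (edgeR, adjusted p = 0.000182).

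Cyp19a1, the aromatase that turns androgens into estrogens, rose in the 3 homozygous groups, from a very low base. It averaged 0.424, 0.446 and 0.515 CPM in XX 1bp-ins-hom, 3bp-del-hom and 3bp-12bp-del-hom gonads, against 0.0628 CPM in XX WT gonads, with log2 fold changes of 2.69 ± 0.64, 2.73 ± 0.49 and 2.96 ± 0.52 (SE, edgeR, adjusted p of 0.0123, 0.00116 and 0.00324). Cyp19a1 passed the filter on low counts only through the homozygotes, so these sizes are loose. Hsd17b12, a widely expressed reductase, and Nr5a1, the steroidogenic factor that also marks Sertoli and other somatic gonad cells, rose in each of the 3 groups as well, by 0.73, 0.71 and 0.68 and by 0.80, 0.77 and 0.88 on the log2 scale. Npc1, which exports cholesterol from lysosomes, fell in each by smaller amounts than these genes moved, 0.33, 0.40 and 0.17. In XX 1bp-ins-hom replicate 5 Nr0b1, a repressor of steroidogenic genes, was at 19.7 CPM, the lowest of the 24 XX libraries.

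Of the 4 Hedgehog targets 1 was called higher and 0 lower in XX 1bp-ins-hom over XX WT. In XX 3bp-del-hom 1 was higher and 2 were lower, and in XX 3bp-12bp-del-hom 1 was higher and 1 lower. Of all genes tested, 32.3%, 44.8% and 25.6% were called in these comparisons. Gli1 rose in XX 1bp-ins-hom (log2 fold change 1.84 ± 0.58, SE, edgeR, adjusted p = 0.0448, with 41.8 CPM in replicate 5 and 6.60 to 18.9 CPM in its fellows) and in XX 3bp-del-hom (1.04 ± 0.22, adjusted p = 0.00336), and Ptch1 in XX 3bp-12bp-del-hom (0.97 ± 0.25, adjusted p = 0.0272). Hhip, a Hedgehog antagonist induced by the pathway, fell in 3bp-del-hom (-1.35 ± 0.34, edgeR, adjusted p = 0.00803) and in 3bp-12bp-del-hom (-1.25 ± 0.36, adjusted p = 0.0286). Both calls of Hhip were lost in the fit over all 12 groups (edgeR adjusted p of 0.454 and 0.524). The 14 XX homozygous libraries other than replicate 5 held Hhip at 0.415 to 1.73 CPM, against 4.38 to 92.3 CPM in the 22 XY libraries and 1.36 to 3.54 CPM in XX heterozygotes and wild type. Dhh, the Sertoli-made ligand, was at 15.3 to 114 CPM in the same 14 libraries, against 74.9 to 293 CPM in XY and 0.933 to 2.55 CPM in XX heterozygotes and wild type.

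The genes most like the 2 lead enzymes were taken by Pearson correlation of log2 CPM over all 46 libraries, among 12363 expressed genes. Predicted genes with Gm or Rik names were left out. For Hsd17b3 they were Dhh (0.989), Tesc (0.989), Hcrtr1 (0.987), Amh (0.986), Smtnl2 (0.986), Gdnf (0.985), Fzd9 (0.984) and Sox8 (0.983), among them 4 of the Sertoli markers. The libraries fall into classes by sex and genotype, so these values largely describe those classes. Within the 15 XX homozygous libraries the closest were Tspan15 (0.975), Fxyd6 (0.969), Serpine2 (0.969), Dhh (0.965), Smtnl2 (0.964), Tmem184a (0.961), Cbln1 (0.96) and Dok7 (0.96), and without replicates 4 and 5 of 1bp-ins-hom Dhh was at 0.968. For Cyp17a1 over all 46 they were Srpx2 (0.915), Acsbg1 (0.882), Pdyn (0.861), Jam2 (0.824), Hspa12a (0.821), Rassf5 (0.82), Hsd3b1 (0.819) and Myo1a (0.818). Without the 2 libraries farthest in Cyp17a1 these were 0.907, 0.847, 0.825, 0.794, 0.817, 0.743, 0.674 and 0.695. Within the 15 XX homozygous libraries the likeness to Cyp17a1 rested on replicate 5: Hsd3b1 led the expressed genes at 0.954 and stood at 0.543 without the 2 farthest libraries. Insl3, too low to count among the expressed genes, was at 0.957 there and at 0.195 without the same 2. Over all 46 libraries Insl3 was at 0.865 with Cyp17a1.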

How the data were processed

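Poly(A) RNA of whole gonads was sequenced in 46 libraries, 24 XX and 22 XY. Genome build mm10 is given per the submitters' processing notes. No source used here names the aligner, the quantifier, the annotation or the handling of strand. The authors deposited estimated counts per gene symbol, with 8 to 8.9% of the values in a library not whole, and these were rounded before modelling. The authors also deposited TPM, used here only to compare levels between genes, whose columns sum to 923510 to 945851. Both tables held 1 column that matched no sample and was not used.

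Counts were scaled by TMM (edgeR 4.0.16, limma 3.58.1, R 4.3.3) and are given as CPM, with log2 CPM at a prior count of 2. Each of 16 comparisons was fitted on its 2 groups alone with edgeR's quasi-likelihood test after its filter on low counts, and p was adjusted by Benjamini-Hochberg over all genes tested, with calls under 0.05. The fit was tested on simulated data. Alternatives were RLE normalization, no filter, DESeq2 1.42.0, a fit over all 12 groups, a replicate block, and libraries left out. Replicate numbers were not shown to pair samples. No 2 libraries of a group agreed within counting noise (71 pairs, lowest chi-square per degree of freedom 13.3).

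The 10 genes were always named. From other lists at most 4 called genes per comparison were named, apart from Npc1, which was named in addition. Hedgehog, adrenal, chromaffin and mesonephros genes were named wherever they stand beside a result. Also named were the 8 genes most like Cyp17a1 and Hsd17b3 among genes with a mean log2 CPM of at least 1. Predicted genes (Gm and Rik names) were left out of that search. The genes and lists were chosen with earlier results of these data known. Promoters are from RefSeq (GRCm38.p6), and gene positions from a GRCm38 annotation. Some genes of the lists enter their list's counts and sums but are not reported here by name.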

Additional observations from a re-analysis of the deposited data

Results flagged for a closer look

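Each gene was examined in each group of 5 libraries for a highest or lowest library set apart from the nearest other by more than Dixon's 95% value. Of 50 such gene and group pairs 17 were set apart. The rule would set apart about 1 in 20 of independent, normally spread values. These genes vary together and XX 1bp-ins-hom replicate 5 had already been singled out, so the count carries no test. XX 1bp-ins-hom replicate 5 accounted for 9 of them, each time as the highest library: Star at 34.1 CPM, Cyp11a1 at 27.7 CPM, Hsd3b1 at 75.2 CPM, Cyp17a1 at 63.0 CPM, Insl3 at 17.1 CPM, Lhcgr at 5.28 CPM, Scarb1 at 145 CPM, Fdx1 at 25.7 CPM and Hsd17b1 at 11.0 CPM. Its Hsd17b3 was the highest of the group but was not set apart by this measure.

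XY 3bp-del-hom replicate 3 was set apart above its fellows for Star at 30.1 CPM, Cyp11a1 at 11.0 CPM, Hsd3b1 at 35.7 CPM, Cyp17a1 at 23.0 CPM, Insl3 at 6.93 CPM and Lhcgr at 1.90 CPM, and not for Scarb1, Fdx1, Hsd17b1 or Hsd17b3. Cyp11a1 alone was set apart in XX 3bp-del-hom replicate 2, at 8.70 CPM against 4.06 to 4.77 CPM in its fellows, and in XY 1bp-ins-hom replicate 2, at 6.09 CPM against 1.46 to 2.77 CPM.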

How the results depend on the processing

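RLE normalization changed no count of called genes among the 10 by over 1.5 times in any of the 16 comparisons, and the 5 comparisons of XY mutants with XY WT and that of XX 1bp-ins-het with XX WT gave 0 calls under every alternative run. Without an expression filter XX 1bp-ins-hom over XX WT gave 1 call in place of 2. DESeq2 gave 4 calls in place of 2 for XX 3bp-del-hom over XY WT, 2 in place of 1 for XX 3bp-12bp-del-hom over XY WT and 3 in place of 1 for XX 1bp-ins-hom over XX 1bp-ins-het. A fit over all 12 groups, which shares 1 estimate of the spread, gave 8 calls in place of 2 for XX 1bp-ins-hom over XX WT, 3 in place of 5 for XX 3bp-del-hom over XX WT, 3 in place of 6 for XX 3bp-12bp-del-hom over XX WT, 1 in place of 0 for XX 1bp-ins-hom over XY WT, and 7 in place of 1 for XX 1bp-ins-hom over XX 1bp-ins-het. The calls of the XX homozygotes over XX WT lost in that fit were those of Hsd3b1 and Lhcgr in both deletion groups and of Hsd17b1 in 3bp-12bp-del-hom. Cyp11a1 in XY WT over XX WT and Lhcgr in XX 3bp-del-hom over XX 3bp-del-het also lost their calls (edgeR adjusted p of 0.242 and 0.167). The cause of these shifts was not tested. For these changes of method and the replicate block, counts over all genes are given in the last paragraph where they moved by over 1.5 times. The counts over all genes not listed there moved by no more than that.

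Same-numbered libraries did not deviate together: in 0 of 16 comparisons was every pair correlation over 0.1 (range -0.339 to 0.4). With the replicate block the calls were 2 in place of 4 for XY WT over XX WT (Cyp11a1 and Lhcgr lost, edgeR adjusted p of 0.0617 and 0.0797), 7 in place of 2 for XX 1bp-ins-hom over XX WT, 2 in place of 6 for XX 3bp-12bp-del-hom over XX WT (Hsd3b1, Lhcgr, Scarb1 and Hsd17b1 lost, edgeR adjusted p of 0.0642, 0.0813, 0.0964 and 0.249), 1 in place of 2 for XX 3bp-del-hom over XY WT (Hsd17b3 lost, 0.138), 2 in place of 1 for XX 3bp-12bp-del-hom over XY WT, and 4 in place of 1 for XX 1bp-ins-hom over XX 1bp-ins-het. Lhcgr in XX 3bp-del-hom over XX 3bp-del-het also lost its call under the block (edgeR adjusted p = 0.0547). The block turned Cyp17a1 in XX 1bp-ins-hom over XX WT to -0.61 (edgeR adjusted p = 0.0362), since replicates 4 and 5 have no partner in XX WT and drop out of the contrast by construction.

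XX WT replicate 1 had the highest chromaffin marker sum of all libraries, and XY WT replicate 3 the highest mesonephros marker sum. These marker-carrying wild-type libraries were left out where their groups were compared. XX 3bp-del-hom replicate 4, with a mesonephros marker sum of 114 CPM, was kept. There were then 8 calls for XY WT over XX WT and 1 for XX 1bp-ins-hom over XX WT. Over XY WT there were 4 for XX 3bp-del-hom and 2 for XX 3bp-12bp-del-hom. Chosen after seeing the data, leaving out XX 1bp-ins-hom replicate 5 with the marker-carrying wild-type library gave 4 calls over XX WT and 2 over XY WT, and Cyp17a1 over XY WT turned to -1.81 (edgeR adjusted p = 0.0129). Leaving out each library in turn gave 2 to 8 calls for XY WT over XX WT, 1 to 5 for XX 1bp-ins-hom, 4 to 6 for XX 3bp-del-hom, 5 to 6 for XX 3bp-12bp-del-hom and 0 to 1 for XX 3bp-del-het over XX WT. It gave 0 to 1 for XX 1bp-ins-hom, 1 to 4 for XX 3bp-del-hom and 0 to 2 for XX 3bp-12bp-del-hom over XY WT, 0 to 4 for XX 1bp-ins-hom over XX 1bp-ins-het and 2 to 5 for XX 3bp-del-hom over XX 3bp-del-het. Depth limits Insl3, Hsd17b1 and Hsd17b3 in XX WT, with 12.48 reads or fewer in each library.

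Counts of calls over all genes that moved by over 1.5 times were these, leaving aside libraries left out in turn. DESeq2 gave 2756 in place of 1738 for XY WT over XX WT, 86 in place of 0 for XX 1bp-ins-het and 2665 in place of 1721 for XX 3bp-del-het over XX WT, and 618 in place of 20 for XX 1bp-ins-hom and 1769 in place of 886 for XX 3bp-12bp-del-hom over XY WT. For XY 1bp-ins-hom, 3bp-del-hom, 3bp-12bp-del-hom, 1bp-ins-het and 3bp-del-het over XY WT, with 0, 0, 2, 0 and 0 calls as reported, DESeq2 gave 123, 176, 135, 27 and 25 and the fit over all groups 802, 653, 210, 1 and 188. The fit over all groups gave 5044 for XY WT, 2 for XX 1bp-ins-het and 723 for XX 3bp-del-het over XX WT, and 1960, 4887 in place of 2797, and 2289 for XX 1bp-ins-hom, 3bp-del-hom and 3bp-12bp-del-hom over XY WT. The replicate block gave 1088 for XY WT, 507 for XX 3bp-del-het and 1217 in place of 4088 for XX 3bp-12bp-del-hom over XX WT, 1, 596 and 267 for the same 3 XX groups over XY WT, and 0 for XY 3bp-12bp-del-hom. Without XX WT replicate 1 and XY WT replicate 3 there were 6817 for XY WT, 1 for XX 1bp-ins-het and 1055 for XX 3bp-del-het over XX WT. The same setting gave 12 for XX 1bp-ins-hom and 2474 for XX 3bp-12bp-del-hom over XY WT. It gave 56, 5 and 3 for XY 3bp-12bp-del-hom, 1bp-ins-het and 3bp-del-het. Without a filter there were 33 for XX 1bp-ins-hom over XY WT, and 1, 1 and 3 for XY 3bp-del-hom, 1bp-ins-het and 3bp-del-het.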
